A study of Macaca mulatta with 4 samples.

Results

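A set of 10 genes of the node of Ranvier and its flanking paranode and juxtaparanode was measured in prefrontal cortex of infant rhesus macaques (Macaca mulatta), with and without repeated exposure to sevoflurane, an inhaled general anaesthetic. NFASC, CNTN1, CNTN2, CNTNAP1, CNTNAP2, ANK3, SPTBN4, NRCAM, HAPLN2 and EPB41L3 were chosen by the known roles of their proteins, with ion channels left out, from a table of 33618 genes. Of the 10, 9 were found by symbol, and EPB41L3 was found through its RefSeq gene number, as LOC693475. All but ANK3, which had no count in any library, passed the filter on low counts, so 9 were tested. Levels are given as CPM, the counts scaled to a common library size, and changes as log2 fold changes of sevoflurane against control. Where values of single libraries are given, replicate 2 of a group stands before replicate 3.

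There were 4 RNA-seq libraries of wild type animals, 2 from control cortex (agent given as none) and 2 from cortex of animals exposed to sevoflurane. Sevoflurane was given at about 2.5 to 3% for 4 hours at a time, first around postnatal day 7 and again 14 and 28 days later, and the tissue was taken straight after the last exposure. The labels number the libraries 2 and 3 in each group. They do not say how control animals were handled, or that the replicates are separate animals, so a p-value here reflects the spread among these libraries alone, which may be technical. The controls had 10059944 and 7793757 counts in all, and the sevoflurane libraries 11703857 and 11706115. Control replicate 3, the shallowest library, stood apart from the other libraries on the first principal component, at 59.56 against -32.02 to -3.12.

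At the node of Ranvier a myelinated axon is bare and its sodium channels are clustered, held by ankyrin and spectrin beneath cell adhesion molecules. At the paranode on either side, loops of the myelinating oligodendrocyte are sealed to the axon by a complex of glial neurofascin with axonal contactin and its partner CNTNAP1. In the juxtaparanode beyond it, CNTN2 and CNTNAP2 hold potassium channels under the myelin. Some of these proteins are made by the neuron, some by the oligodendrocyte and some by both, and ankyrin, beta-IV spectrin, neurofascin and NRCAM also build the axon initial segment, which needs no myelin.

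Of the 9 tested genes, NFASC was lower after sevoflurane and no gene was higher, at an adjusted p under 0.05 by the edgeR quasi-likelihood test. Over all 17693 genes tested, 0.599% were called, 0.537% as lower and 0.0622% as higher. CNTN2 and HAPLN2 had larger negative log2 fold changes than NFASC (-1.28 and -1.30 against -0.89) but did not pass. The other 6 genes lay between -0.33 and 0.30. The log2 fold change was negative for 7 genes and positive for 2, with a median of -0.16, beside a median of -0.00 over all genes tested. The 2 groups did not overlap for 6 of the 9 genes, 5 with both sevoflurane libraries below both controls and 1 with both above. Such separation occurred in 41.2% of all tested genes, 20.4% below and 20.8% above. An unadjusted p under 0.05 was found for 4 of the 9 genes (NFASC, CNTN2, HAPLN2 and CNTNAP2), beside 9.92% of all genes tested.

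**Figure D1:**
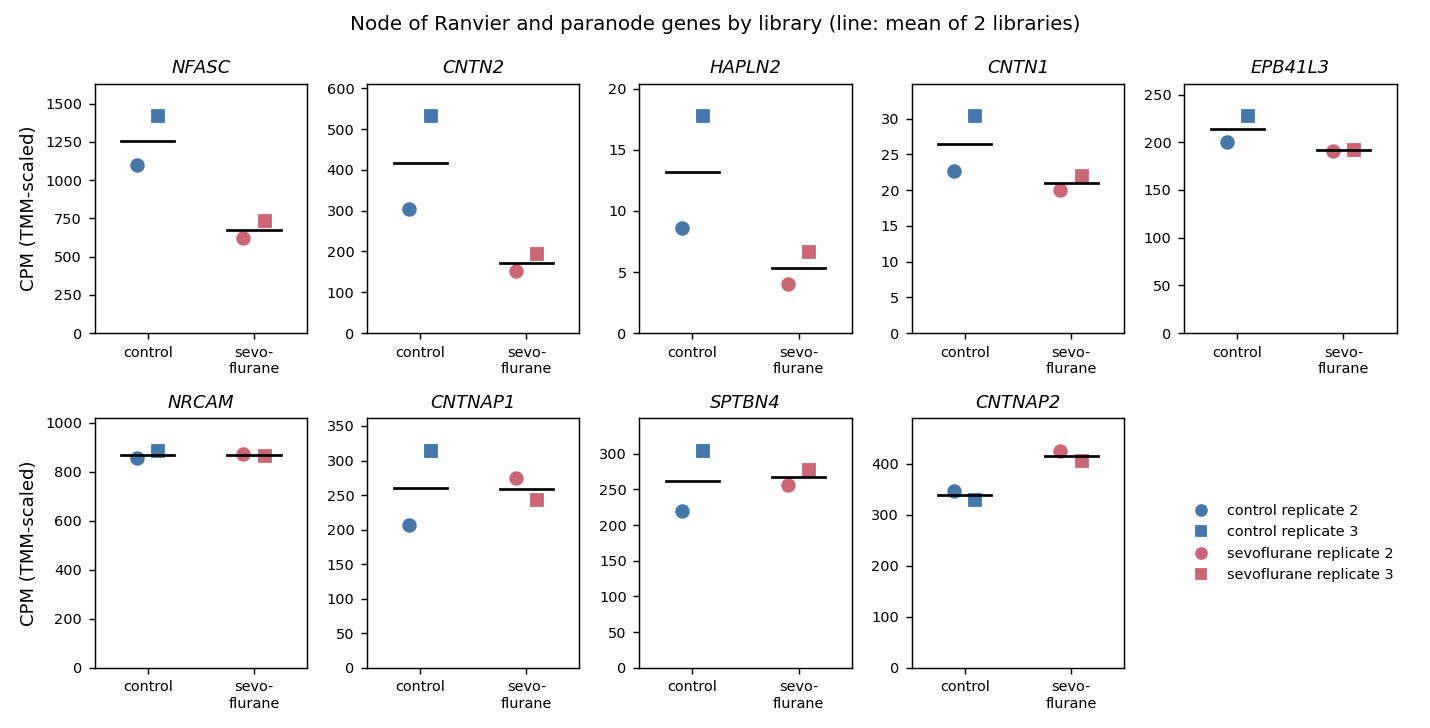
CPM of the 9 genes with counts in each of the 4 libraries (y axis, linear from 0, scaled for each gene), with control in blue and sevoflurane in red, circles for replicate 2, squares for replicate 3 and a line at the mean of 2 libraries. NFASC, CNTN2 and HAPLN2 are lower in both sevoflurane libraries, and NRCAM lies between 856 and 886 CPM in all 4.

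Among the proteins of the node itself, NFASC encodes neurofascin, whose neuronal isoform gathers the nodal complex and whose glial isoform forms the oligodendrocyte side of the paranodal seal. NFASC was at 1096 and 1418 CPM in the controls and at 619 and 734 CPM after sevoflurane. Both sevoflurane libraries were thus below both controls. Its mean fell 1.86-fold, from 1257 ± 228 CPM to 676 ± 81.6 CPM (SD, n = 2 per group). On the log2 scale the change was -0.89, with a 95% interval of -1.23 to -0.56 (SE 0.15, adjusted p = 0.0382 by edgeR). Ranked by p, it stood at place 81 of the 17693 tested genes. With sevoflurane replicate 2 left out the log2 fold change was -0.78 and the call was lost (adjusted p = 0.0834), as it was with no filter on low counts (adjusted p = 0.0640). Counts per gene do not separate the glial from the neuronal isoform, so which of them was lower cannot be read from these values.

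NRCAM, a nodal adhesion molecule that binds neurofascin and ankyrin, varied least among the libraries. It was at 856 and 886 CPM in the controls and at 872 and 863 CPM after sevoflurane. The groups overlapped. NRCAM had a log2 fold change of -0.01, with a 95% interval of -0.24 to 0.23 (SE 0.11, adjusted p = 0.992 by edgeR).

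SPTBN4, the beta-IV spectrin that ties the nodal ankyrin to actin, was at 220 and 304 CPM in the controls and at 256 and 278 CPM after sevoflurane. Both sevoflurane libraries lay between the controls. Its log2 fold change was 0.03, with a 95% interval of -0.33 to 0.39 (SE 0.16, adjusted p = 0.974 by edgeR). Leaving out control replicate 2 gave -0.19, and leaving out control replicate 3 gave 0.28, so its direction depended on which control was used.

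ANK3, ankyrin-G, the scaffold on which the nodal membrane proteins are anchored, was listed at 0 in all 4 libraries. A count of 0 allows up to 3 counts, or 0.293 and 0.398 CPM in the controls and 0.256 and 0.255 CPM after sevoflurane, for counting error only. The row of the related ANK2, ankyrin-B, held 9 to 20 counts per library. Whether reads of the ankyrin genes were lost or given to other rows was not tested, and nothing on ankyrin-G is read from the 0.

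HAPLN2, a hyaluronan link protein made by oligodendrocytes that organises the matrix around nodes, rested on few reads, 88 and 134 counts in the controls and 47 and 78 after sevoflurane. Its levels were 8.59 and 17.8 CPM in the controls and 4.02 and 6.62 CPM after sevoflurane. Both sevoflurane libraries were below both controls, but the controls differed from each other by more than control replicate 2 did from sevoflurane replicate 3. The log2 fold change was -1.30 (SE 0.40, 95% interval -2.20 to -0.39), with an adjusted p of 0.283 by edgeR. It ranged from -0.69 without control replicate 3 to -1.74 without control replicate 2.

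At the paranode, CNTN1 encodes contactin-1, the axonal GPI-anchored partner in the seal. Its row held 229 to 259 counts per library, and whether some of its reads were given to other rows was not tested. CNTN1 was at 22.6 and 30.4 CPM in the controls and at 20.0 and 22.0 CPM after sevoflurane. The sevoflurane libraries were both lower, but control replicate 2 lay nearer to them than to control replicate 3. The log2 fold change was -0.33, with a 95% interval of -0.81 to 0.14 (SE 0.21, adjusted p = 0.679 by edgeR), and without control replicate 3 it was -0.11.

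CNTNAP1, or Caspr, the axonal membrane protein bound to contactin-1 and required for the paranodal seal, had nearly equal means, 260 ± 75.9 CPM in the controls and 259 ± 22.5 CPM after sevoflurane (SD, n = 2 per group). It was at 207 and 314 CPM in the controls and at 275 and 244 CPM after sevoflurane, so the control pair enclosed the sevoflurane pair. Its log2 fold change was -0.00, with a 95% interval of -0.42 to 0.41 (SE 0.18, adjusted p = 0.998 by edgeR). Leaving out control replicate 2 gave -0.28 and leaving out control replicate 3 gave 0.33.

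EPB41L3 encodes a cytoskeletal adaptor of the band 4.1 family that links the paranodal and juxtaparanodal membrane complexes to the axonal cytoskeleton. It was at 200 and 227 CPM in the controls and at 191 and 192 CPM after sevoflurane. The sevoflurane libraries were nearly equal and both below the controls. EPB41L3 had a log2 fold change of -0.16, with a 95% interval of -0.44 to 0.12 (SE 0.12, adjusted p = 0.756 by edgeR), and it was -0.06 without control replicate 3.

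At the juxtaparanode, CNTN2, also called TAG-1, is a contactin carried by both the axon and the oligodendrocyte, where it bridges the membranes. It was at 304 and 532 CPM in the controls and at 151 and 193 CPM after sevoflurane. Both sevoflurane libraries were below both controls, and the gap between the controls was wider than that between control replicate 2 and either sevoflurane library. The means were 418 ± 161 and 172 ± 29.7 CPM (SD, n = 2 per group), 2.43-fold apart. The log2 fold change was -1.28, with a 95% interval of -1.81 to -0.75 (SE 0.24). The adjusted p was 0.0549 by edgeR, so CNTN2 was not called. Among alternatives that kept every library it ranged from 1.90e-11 with the replicate block to 0.114 by DESeq2. The replicate numbers are not taken as pairs, and without that block the lowest was 7.87e-05, by the likelihood ratio test. On the log2 scale the change was -0.82 with control replicate 3 left out and -1.63 with control replicate 2 left out.

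CNTNAP2, or Caspr2, the axonal partner of CNTN2 and carrier of the juxtaparanodal potassium channels, had both sevoflurane libraries above both controls. It was at 347 and 329 CPM in the controls and at 425 and 405 CPM after sevoflurane, or 338 ± 12.2 and 415 ± 14.7 CPM (SD, n = 2 per group). The log2 fold change was 0.30 (SE 0.11, 95% interval 0.04 to 0.55), with an adjusted p of 0.414 by edgeR, and it lay between 0.26 and 0.33 under every alternative tried.

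The 2 partners of the juxtaparanodal complex thus had values of opposite sign. In the count of CNTN2 over that of CNTNAP2 within a library, neither scaling nor gene length affects the comparison across libraries. This ratio was 0.878 and 1.61 in the controls and 0.355 and 0.477 after sevoflurane, 3.00 times higher on average in the controls. The ratio of CNTN2 to CNTNAP1 was 1.47 and 1.69 in the controls and 0.549 and 0.793 after sevoflurane. At the node, the ratio of NFASC to NRCAM was 1.28 and 1.60 in the controls and 0.709 and 0.850 after sevoflurane, and that of NFASC to SPTBN4 was 4.99 and 4.67 against 2.42 and 2.64. None of these 4 ratios overlapped between the groups, whereas the ratio of the axonal CNTNAP1 to CNTNAP2 did, at 0.596 and 0.953 in the controls and 0.647 and 0.602 after sevoflurane. The ratio of CNTNAP1 to CNTN1, its partner in the paranodal seal, did not overlap either, at 9.13 and 10.3 in the controls and 13.8 and 11.1 after sevoflurane. The pairs were chosen after the values were seen, and no test was made, since 2 libraries against 2 cannot give an exact two-sided permutation p below 0.333. The share of all gene pairs that separate was not computed. Those 4 ratios also set a gene already seen to be lower over a gene that was not. Nothing is therefore read from how many ratios separated.

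**Figure D2:**
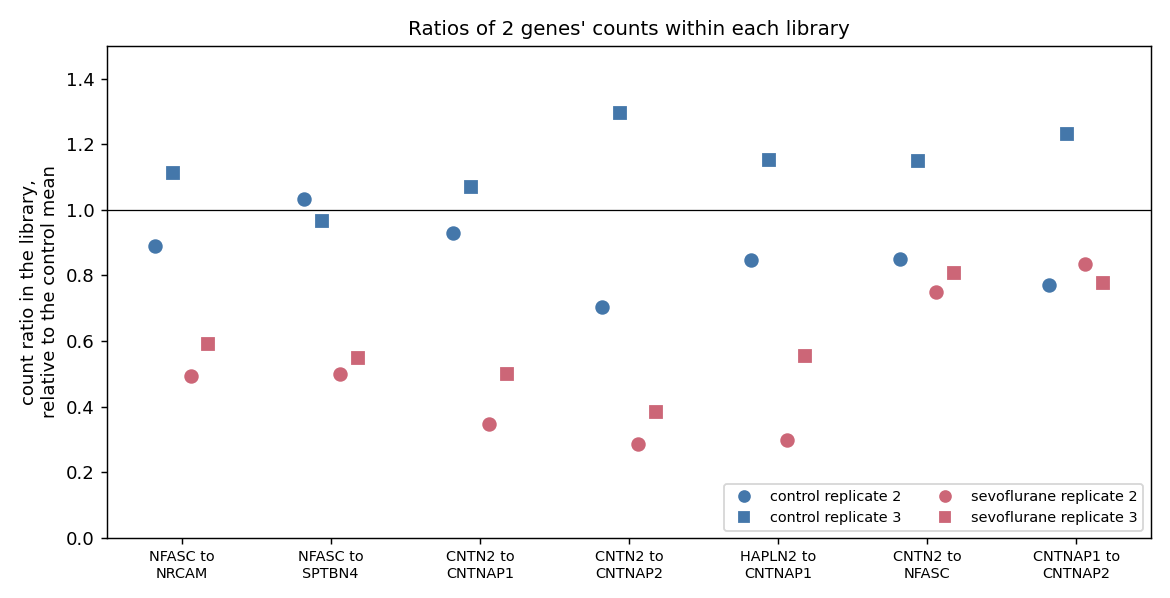
Ratio of the counts of 2 genes within each library (y axis, linear, divided by the mean ratio of the 2 controls) for 7 pairs, with control in blue and sevoflurane in red, circles for replicate 2 and squares for replicate 3. The pairs with NFASC, CNTN2 or HAPLN2 over NRCAM, SPTBN4, CNTNAP1 or CNTNAP2 are lower in both sevoflurane libraries, and CNTNAP1 to CNTNAP2 overlaps.

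NFASC, CNTN2 and HAPLN2, the 3 genes with the most negative values, each have a known product of the oligodendrocyte, a grouping made after the values were seen. Markers of mature oligodendrocytes moved with them. Of 13 tested markers, 11 were lower and 0 higher, with a median log2 fold change of -1.83, and none of the 14 listed was at 0 in all libraries. TF, with 4 counts in control replicate 2 and 0 elsewhere, was not tested. Their summed level was 9398 and 14840 CPM in the controls and 2454 and 3661 CPM after sevoflurane. That sum was highest in control replicate 3, then control replicate 2, sevoflurane replicate 3 and sevoflurane replicate 2. This was also the order of NFASC, CNTN2, HAPLN2, CNTN1 and EPB41L3, 5 of the 9 genes, and of 6.28% of all genes tested. Sevoflurane replicates 2 and 3 held 2240 and 2258 counts of EPB41L3 and 234 and 259 of CNTN1. For these 2 genes the order of the sevoflurane libraries is thus not settled. In bulk tissue, fewer cells of a type and less RNA per cell cannot be told apart, and the part of the oligodendrocyte markers in the values of the node genes was not tested.

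Neuron markers did not separate the groups in the same way. Of 12 general neuron markers none was called by edgeR (0 at an unadjusted p under 0.05), with a median of 0.09 and sums of 8440 and 10065 CPM in the controls and 10223 and 10029 CPM after sevoflurane. The 4 neurofilament genes, abundant in large axons, summed to 930 and 1562 CPM in the controls and to 1364 and 1355 CPM after sevoflurane. The order of that sum, with control replicate 3 highest and control replicate 2 lowest, was also that of CNTNAP1 and NRCAM and of 6.21% of all genes tested. SPTBN4 shared the highest and the lowest library with the sum. The 2 sevoflurane sums were nearly equal. As a mean log2 deviation over the 4 genes they changed places, at -0.003 in replicate 2 and 0.163 in replicate 3. The middle of that order thus depended on the weighting.

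The node genes were also set against these sums. Relative to the summed neuron markers of the same library, NFASC, CNTN2 and HAPLN2 were lower after sevoflurane by a mean log2 difference of -1.02, -1.37 and -1.40, and the groups did not overlap for any of the 3. On the same scale CNTNAP1 (-0.11), CNTNAP2 (0.16) and SPTBN4 (-0.09) overlapped, while NRCAM (-0.14), EPB41L3 (-0.29) and CNTN1 (-0.46) had both sevoflurane libraries below. NRCAM overlapped in CPM and relative to the neurofilament sum, so its separation depended on the neuron sum. The share of all genes that separate on this scale was not computed, so nothing is read from how many node genes did. Relative to the summed oligodendrocyte markers, all 9 were above the controls in both sevoflurane libraries. The difference was smallest for HAPLN2 (0.72), CNTN2 (0.74) and NFASC (1.09), and 1.66 to 2.27 for the other 6. The log2 ratio of the group means of that sum was itself -1.99. A gene that fell clearly less than the sum must therefore come out above, so nothing is read from all 9 doing so. These relative values are descriptions with no test, and a sum is weighted towards the most abundant genes of its list.

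**Figure D3:**
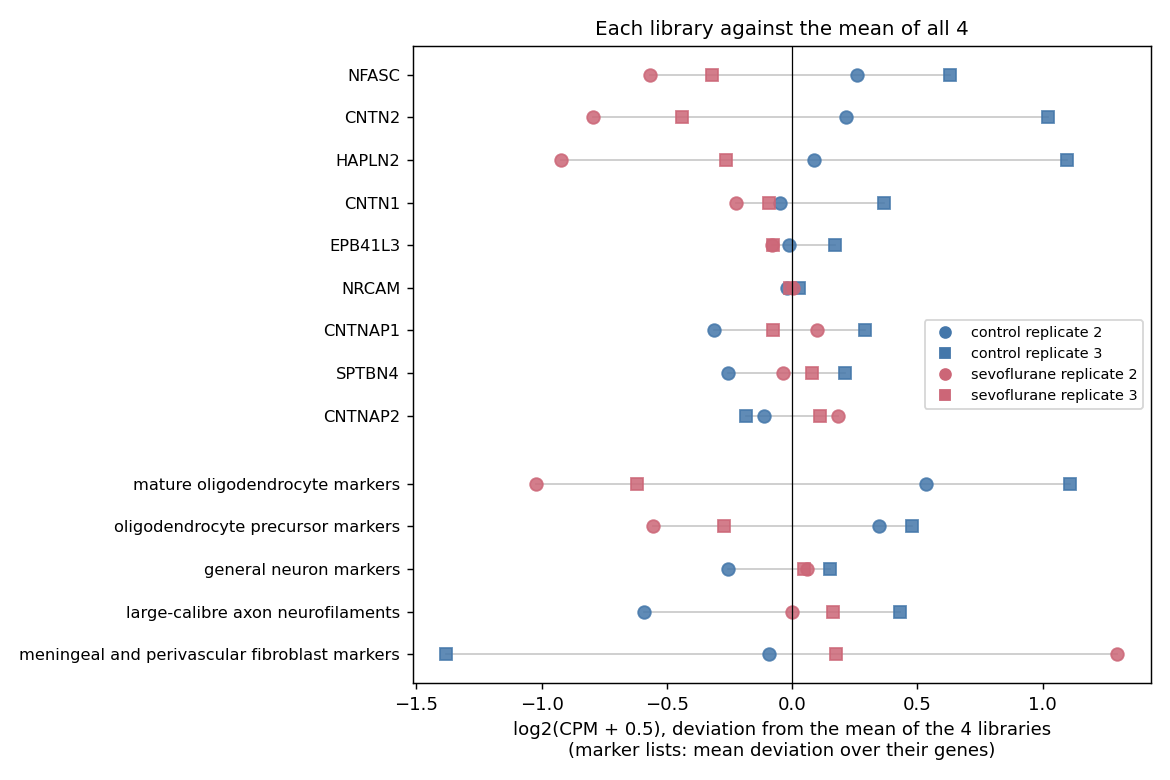
Deviation of each library from the mean of all 4 in log2(CPM + 0.5) (x axis), for the 9 genes (upper rows) and as the mean over the genes of 5 marker lists (lower rows), with control in blue and sevoflurane in red, circles for replicate 2 and squares for replicate 3. NFASC, CNTN2, HAPLN2, CNTN1 and EPB41L3 show the library order of the mature oligodendrocyte markers, but the sevoflurane libraries nearly coincide for EPB41L3 and lie close for CNTN1. CNTNAP1, SPTBN4 and NRCAM have control replicate 2 lowest and control replicate 3 highest, as the neurofilament genes do, with little spread for NRCAM.

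The remaining marker lists describe the tissue. Cortical excitatory markers summed to 4663 and 6676 CPM in the controls and 5410 and 5175 CPM after sevoflurane, and inhibitory markers to 418 and 446 against 471 and 395 CPM, with no member called in either by edgeR (0 of 7 and 1 of 6, SST, at an unadjusted p under 0.05). Precursor markers summed to 961 and 921 against 505 and 586 CPM (BCAS1 and OLIG2 lower of 9). All 9 were negative but unevenly so, from -1.76 for BCAS1 to -0.14 for PDGFRA, and SOX6 (-0.19) overlapped between the groups. PDGFRA and SOX6 were chosen after their values were seen, and the sum is not a measure of precursor number. Astrocyte markers summed to 9392 and 7660 against 5504 and 5624 CPM (GFAP lower of 8). Without GFAP the other 7 summed to 4143 and 3784 against 3973 and 3726 CPM and overlapped, with SLC1A2 and SLC1A3 the most abundant of them. Of all 8, 5 had both sevoflurane libraries below both controls, 1 had both above and 2 overlapped, with a median of -0.40. Over all genes tested, 20.4% were below and 20.8% above. Besides GFAP, those below were S100B (-0.76), AQP4 (-0.49), SOX9 (-0.40) and GJA1 (-0.40), none of them called. Microglia markers summed to 348 and 310 against 230 and 280 CPM (CX3CR1 lower of 7), although C1QA (0.66) and C1QB (0.67), chosen after their values were seen and not called, had both sevoflurane libraries above the controls. Endothelial markers summed to 241 and 254 against 272 and 268 CPM (0 of 6 called by edgeR, 0 at an unadjusted p under 0.05). Meningeal and perivascular fibroblast markers were positive for all 7, with SLC6A13 called higher. Their sums were 213 and 102 CPM in the controls and 525 and 192 CPM after sevoflurane. These sums overlapped, since sevoflurane replicate 3 lay below control replicate 2. Choroid plexus and ependymal markers summed to 16.3 and 21.1 against 7.60 and 9.93 CPM, with 0 of 3 tested called by edgeR. Of these, 2 had an unadjusted p under 0.05, with opposite signs, AQP1 at -1.60 and FOXJ1 at 2.40. The part of these cell types in the values of the node genes was not tested.

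The ion channels that the nodal and juxtaparanodal proteins hold in place were not called. Of 12 found and tested, 0 were lower and 0 higher by edgeR, with 1 at an unadjusted p under 0.05, 9 positive and 3 negative values and a median of 0.10. SCN1A, a voltage-gated sodium channel, was at 146 and 166 CPM in the controls and 198 and 190 CPM after sevoflurane (0.32, SE 0.13, adjusted p = 0.444 by edgeR). SCN8A, the main sodium channel of mature nodes, was at 102 and 114 against 122 and 120 CPM (0.16, SE 0.13, adjusted p = 0.765 by edgeR). Both had the sevoflurane libraries above the controls. Of the 12 channels 3 were above in this way, 0 were below and 9 overlapped, beside 20.8% above and 20.4% below over all genes tested. KCNA1 (-0.11) and KCNA2 (0.11), the potassium channels of the juxtaparanode, overlapped between the groups and were chosen after their values were seen.

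Among 18 other scaffold, matrix and contact genes of the myelinated axon, 1 was lower, 0 were higher and 17 were not called, with a median of -0.12. The called gene was MAG, a glial receptor of the membrane that faces the axon along the internode and also one of the oligodendrocyte markers above. It fell from 421 and 723 CPM in the controls to 110 and 153 CPM after sevoflurane, a change of -2.12 on the log2 scale (SE 0.25, adjusted p = 0.0106 by edgeR). Both sevoflurane libraries were below both controls for 6 of the 18 genes and above for 5, and 7 overlapped, beside 20.4% below and 20.8% above over all genes tested. Those below were MAG and, with no call, the matrix proteoglycans VCAN (-0.74, adjusted p = 0.245 by edgeR) and BCAN (-0.63, adjusted p = 0.0790), the secreted LGI3 (-0.62, adjusted p = 0.174), the adhesion molecule CADM4 (-0.54, adjusted p = 0.312) and the myelin glycoprotein OMG (-0.24, adjusted p = 0.681). Those above were DLG2 (0.24), SPTBN1 (0.20), ADAM22 (0.17), CADM3 (0.11) and SPTAN1 (0.07), none of them called. Axonal and cytoskeletal genes were also among those that overlapped, such as CADM2 (-0.37), DLG1 (-0.09) and DLG4 (0.08). Apart from MAG, these genes were picked with their values in view.

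The close relatives of the node genes, most of them neuronal adhesion and cytoskeletal genes, were measured for comparison. Of 18, none was called by edgeR (2 at an unadjusted p under 0.05), 12 were positive and 6 negative, and the median was 0.09. The contactins CNTN4 and CNTN6 had the smallest p. CNTN4 was at 53.8 and 57.8 CPM in the controls and 84.7 and 83.7 CPM after sevoflurane (0.60, SE 0.14, adjusted p = 0.135 by edgeR), and CNTN6 at 28.9 and 40.3 against 49.1 and 46.9 CPM (0.48, SE 0.19, adjusted p = 0.446). Of the 18 relatives, 1 had both sevoflurane libraries below both controls, 6 had both above and 11 overlapped. Over all genes tested, 20.4% were below and 20.8% above. Within the contactin family, CNTN1 and CNTN2 had both sevoflurane libraries below the controls and CNTN4 and CNTN6 had both above. CNTN3 (0.59) and CNTN5 (-0.08) overlapped. With such separation common among all genes, nothing is read from this split. HAPLN1 (-0.32), HAPLN3 (-0.12) and HAPLN4 (-0.46), the other link proteins, had smaller negative values than HAPLN2, and HAPLN3 and HAPLN4 overlapped between the groups.

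**Figure D4:**
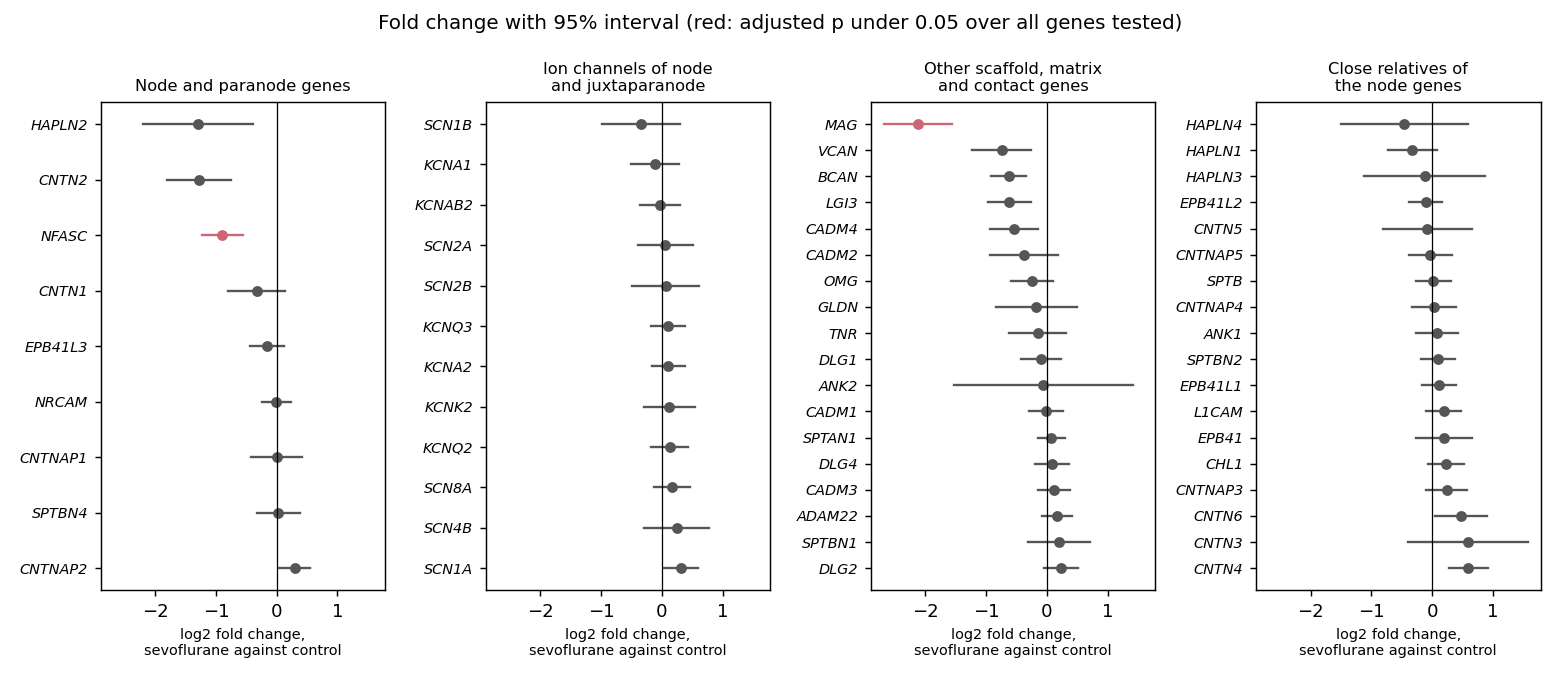
Log2 fold change of sevoflurane against control with its 95% interval (x axis) for the 9 node and paranode genes, 12 ion channels, 18 other scaffold, matrix and contact genes and 18 close relatives, with genes at an adjusted p under 0.05 over all genes tested in red. NFASC and MAG are called, at -0.89 and -2.12, and most ion channels and relatives lie near 0.

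The rule did not use position. In the RefSeq table of assembly T2T-MMU8v2.0, used for gene order alone, NFASC and CNTN2 are direct neighbours on chromosome 1, with 0 protein-coding genes between them. The next genes on either side had smaller values and were not called by edgeR, LRRN2 (-0.31, adjusted p = 0.868) beside NFASC and TMEM81 (-0.29, adjusted p = 0.865) beside CNTN2. Both overlapped between the groups. Further out, MDM4 (-0.24), PIK3C2B (-0.25) and RBBP5 (-0.28) had both sevoflurane libraries below both controls, as did 20.4% of all genes tested. DSTYK (0.04) overlapped, and none of these was called. HAPLN2 lies on the same chromosome, 317 protein-coding genes from CNTN2, and its direct neighbour is BCAN. How the counting program treated strand and overlapping genes is not known here, and whether neighbours shared reads was not tested. The ratio of the CNTN2 count to the NFASC count was 0.278 and 0.375 in the controls and 0.244 and 0.263 after sevoflurane.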

How the data were processed

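RNA came from Trizol extracts checked on a Bioanalyzer, per the labels' protocols. The authors deposited raw counts of reads per gene, with a column for each library. The aligner named in the submitters' processing notes is HISAT2. For the counting program, genome build, annotation and strand setting, nothing is given in the sources used here. Of 142 listed genes, 140 were found by symbol, 1 by RefSeq gene number, and KCNK4 was not matched.

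The deposited counts were tested with edgeR 4.0.16 (R 4.3.3). Its filter, which asks for 10 counts at the median depth in 2 libraries and 15 in sum, kept 17693 genes. Scaling was by TMM. The test was the quasi-likelihood F test, two-sided, with group as its term, and p was adjusted by Benjamini-Hochberg over every gene tested, with a threshold of 0.05. The steps were tested on simulated data. There, 54.1% of 98 genes changed 2-fold and 86.3% of 95 genes changed 4-fold were called, with 10 calls among unchanged genes. A change of about 2-fold can thus be missed, and a single call can be false. Alternatives used DESeq2 1.42.0, limma-voom (limma 3.58.1), other scalings, filters and thresholds, a replicate block, and each library left out.

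The members and lists were chosen with earlier results of these data known. All members are named. Of each pathway list the called genes, or else the 2 with the smallest p, are named, and of each marker list the sums and called genes. No gene lengths were used, so levels are not compared between genes. The values of 1 marker gene are not reported here.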

Additional observations from a re-analysis of the deposited data

How the results depend on the processing

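The main test called 95 genes lower and 11 higher, with 1 node gene (NFASC) lower and 0 higher, and among the 48 channel, scaffold and related genes 1 (MAG) lower and 0 higher. Over all genes the calls were 57 lower and 3 higher with no filter, 219 and 60 by DESeq2, 103 and 7 by limma-voom, 304 and 137 by the likelihood ratio test, 170 and 33 at an adjusted p of 0.1, and 121 to 420 and 57 to 187 with 1 library left out, where the lone library of a group is assumed to vary like the other group. The cause of the higher counts with fewer libraries was not tested. Lower calls among the node genes numbered 0 with no filter, 2 with the stricter filter, by the likelihood ratio test and at 0.1, and 1 to 3 with 1 library left out. None was called higher in any of these. Among the 48 related genes, lower calls were 3 by DESeq2 and by the likelihood ratio test and 2 at 0.1, with 1 to 5 when a library was left out. Higher calls there were 1 by the likelihood ratio test and 0 to 2 when a library was left out.

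NFASC kept its sign in 12 of 12 alternatives and passed the threshold in 10. CNTN2 passed in 7 of 12 and HAPLN2 in 3. CNTNAP1 changed sign with library size alone (0.019), the stricter filter (0.0020), limma-voom (0.035), the replicate block (0.024), and without control replicate 3 (0.33) or sevoflurane replicate 3 (0.08), and ran from -0.28 to 0.33 with 1 library left out. NRCAM changed sign with library size alone (0.010) and ran from -0.031 to 0.019 with 1 library left out. SPTBN4 ran from -0.19 to 0.28.

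Libraries with the same replicate number did not deviate together (correlation 0.0090 over all genes), so the numbers are not taken as pairs. With the number as a replicate block, 341 genes were lower and 170 higher, 3 node genes (NFASC, CNTN2 and HAPLN2) were lower, and 4 of the related genes were lower and 1 higher.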
